A study of Mus musculus with 18 samples.

Results

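The mitochondrial genome holds CpG sites that can be read in the same bisulfite libraries as the nuclear genome. These sites were taken as all cytosines that the tables list under the mitochondrial sequence, with methylated and unmethylated calls kept apart for each library, position and strand. The NCBIM37 mouse reference has 574 such CpG cytosines in 287 CpGs over 16299 bp, of 42650152 CpG cytosines in the mitochondrial, autosomal and X sequence together. Of these 574, 501 were listed in at least 1 library, 468 in all 18 libraries and 73 in none. Another 26 listed positions, with 407 calls in all, lay outside a CpG of the reference and were left out.

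Whole-genome bisulfite sequencing had been done in mouse embryonic stem cells (ESCs) at days 1, 3, 6, 9 and 11, in which bisulfite turns unmethylated cytosine into uracil and leaves methylated cytosine unchanged. The 9 control libraries carried the genotype label Wildtype, and the other 9 libraries were Dnmt1 KO, in which Cre-mediated deletion had removed the gene for the maintenance DNA methyltransferase from a conditional line. Each genotype had 2 libraries per day and 1 at day 6, and the labels gave E14 as the background strain of all 18. The methods instead describe the floxed Dnmt1 cells as C57BL/6, so it is not clear whether control and Dnmt1 KO came from the same line. If they did not, a difference between genotypes cannot be told apart from a difference between lines. The labels do not say whether replicates were separate cultures, so p-values of tests over libraries measure the spread between these libraries, which may be technical. The p-values of tests on calls summed over libraries do not measure that spread.

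Mitochondrial DNA is a circular genome present in many copies per cell, separate from the nuclear chromosomes. It encodes 2 ribosomal RNAs, the tRNAs needed to translate its messages and 13 subunits of the respiratory chain and ATP synthase. Its control region, which encodes no gene product, contains promoters and an origin of replication. The strands differ in base composition and are called heavy, for the guanine-rich strand, and light. The forward strand of the reference held 24.4% cytosine and 12.4% guanine, so it is the light strand, and the reverse strand is the heavy strand. Whether mammalian mitochondrial DNA carries CpG methylation is debated, and low levels in bisulfite data can also come from cytosines that failed to convert. A methylated call here is a cytosine that was read as unconverted, and unconverted and methylated cytosines cannot be told apart in these tables.

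The 10 cytosines named by rule among those that stood above the rest of their strand are shown first, since the results by position turn on them. Each is named by its position and strand in NCBIM37, and is shown with 13 bases before and 13 after its CpG, read 5′ to 3′ on its own strand, with the CpG in capitals.
MT14955-: aggaaatatcattCGggtttaatatggg
MT13344+: atctattattcacCGcattacacccata
MT5167+: aatctacttctacCGccgaaaaaaaaaa
MT15744-: agtttaatgggccCGgagcgagaagagg
MT5439+: aagtattttaattCGagcagaattaggt
MT1214+: atagaactagtacCGcaagggaaagatg
MT11415-: ttggttagtttgcCGcgttgggtggtaa
MT1928+: caaacaagaacccCGcctgtttaccaaa
MT1787-: aacaatggttatcCGagttgttatacgc
MT12273-: aatccgatgtctcCGatgcggttataga

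In the same order, these windows span MT:14941-14968, MT:13331-13358, MT:5154-5181, MT:15730-15757, MT:5426-5453, MT:1201-1228, MT:11401-11428, MT:1915-1942, MT:1773-1800 and MT:12259-12286. MT14955- lies in mt-Cytb (cytochrome b of complex III), MT13344+ and MT12273- lie in mt-Nd5 and MT11415- in mt-Nd4 (both subunits of complex I), and MT5439+ lies in mt-Co1 (the catalytic subunit of cytochrome c oxidase). MT1214+, MT1928+ and MT1787- lie in mt-Rnr2, the large ribosomal RNA gene, and MT15744- lies in the control region. MT5167+ lies between the tRNA genes mt-Tn and mt-Tc. Mouse mitochondrial genes have no introns, so a position inside a gene is exonic.

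Libraries held 7190722 to 11158414 CpG calls in all and 33969 to 130524 mitochondrial ones, from 475 to 487 mitochondrial cytosines per library. A listed mitochondrial cytosine had a median of 68 to 268 calls within a library, so levels of single positions rest mainly on calls summed over libraries. Together the 18 libraries gave 1250492 mitochondrial calls, of which 4365, or 0.349%, were methylated. A read or an amplified molecule can give several calls, so that the intervals and limits given here cover counting error only.

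No difference in the mitochondrial level was detected between Dnmt1 KO and control. The level was 0.228% to 0.453% in control (median 0.403%, n = 9) and 0.244% to 0.467% in Dnmt1 KO (median 0.318%, n = 9), and the genotypes overlapped over most of this range. Averaged over days, Dnmt1 KO minus control was -0.0229 percentage points (exact permutation of genotype within days, two-sided, p = 0.573, adjusted p = 0.859 over 12 single-value tests). Without the libraries of day 6 the difference was 0.00298 points, so that its sign rested on that day. Over the same time course the autosomal level of Dnmt1 KO went from 70.1% ± 0.187 (SD, n = 2) at day 1 to 24.5% ± 0.364 (n = 2) at day 11.

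The mitochondrial level instead moved with the day, in both genotypes. Control libraries read 0.280% and 0.277% at day 1, 0.288% and 0.228% at day 3, 0.403% at day 6, 0.445% and 0.431% at day 9, and 0.418% and 0.453% at day 11. Dnmt1 KO libraries read 0.293% and 0.244% at day 1, 0.318% and 0.266% at day 3, 0.277% at day 6, 0.376% and 0.467% at day 9, and 0.446% and 0.433% at day 11. In both genotypes every library of days 9 and 11 was above every library of days 1 and 3, and the single libraries of day 6 lay on either side, the control library with the later days and the Dnmt1 KO library with the earlier ones. The slope was 0.0194 points per day in control (exact permutation of days over 9 libraries, two-sided, p = 0.0043, adjusted p = 0.0169) and 0.0183 points per day in Dnmt1 KO (exact permutation over 9 libraries, p = 0.0056, adjusted p = 0.0169). The slopes differed by -0.00115 points per day (exact permutation, p = 0.72, adjusted p = 0.961).

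**Figure D1:**
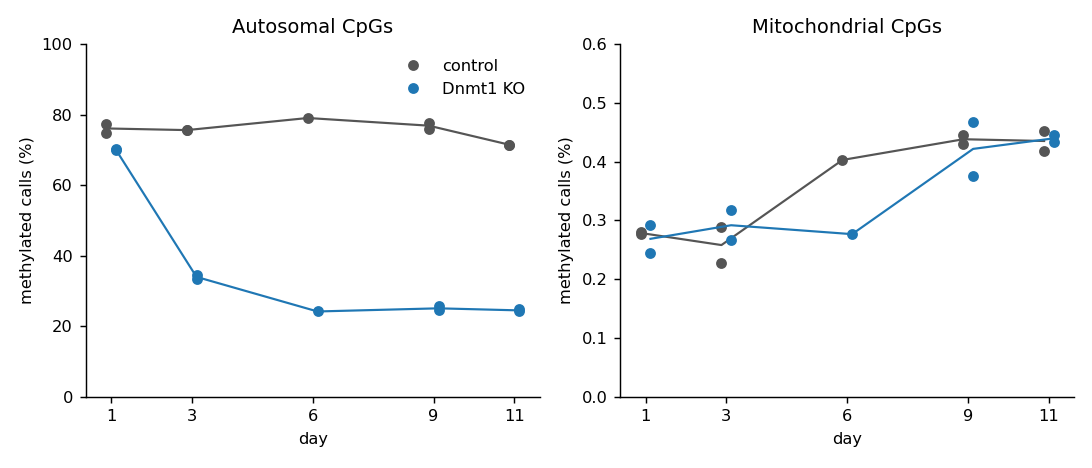
Percent of methylated CpG calls by day on the autosomes (left, axis 0 to 100%) and in the mitochondrial genome (right, axis 0 to 0.6%), with 1 point per library and lines through the means of each genotype and day. The mean autosomal level per day lay between 71.4% and 79.0% in control, with the lowest at day 11, and fell from 70.1% to 24.5% in Dnmt1 KO, whereas the mitochondrial levels of both genotypes were higher at days 9 and 11, at 0.376% to 0.467%, than at days 1 and 3, at 0.228% to 0.318%.

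The increase was spread over the mitochondrial genome. Grouped by day after the values had been seen, and so given as a description, the level was 0.274% ± 0.0282 (SD, n = 8) at days 1 and 3 and 0.434% ± 0.0275 (n = 8) at days 9 and 11, a ratio of 1.58. Of the 408 cytosines with at least 500 calls in both periods, 316 were higher in the later one and 87 lower, and the median cytosine went from 0.237% to 0.391%. The slope was positive in 12 of the 13 regions tested in control and in 12 of 13 in Dnmt1 KO. It was 0.0193 points per day on the forward and 0.0194 on the reverse strand in control, and 0.0145 and 0.020 in Dnmt1 KO. Bisulfite conversion or sequencing batches are not given in the labels, so day and any such batch cannot be told apart.

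Nuclear CpGs around the starts of ribosomal protein genes, which are unmethylated in most cells, were read as a second low-methylated class. The list, chosen after the data had been seen, held 144 genes for cytosolic and mitochondrial ribosomal proteins and 10518 cytosines within 250 bp of their starts. Their level was 1.04% (95% exact interval 0.897% to 1.2%) at days 1 and 3 and 1.05% (0.905% to 1.22%) at days 9 and 11. By genotype it was 0.966% and 1.26% in control and 1.12% and 0.791% in Dnmt1 KO, in the same order of periods. The near-equal levels of both genotypes together thus combined a higher later level in control with a lower one in Dnmt1 KO. Within each genotype the 95% exact intervals of the periods overlapped. Autosomal methylation fell in Dnmt1 KO over these days, so its nuclear starts cannot be taken as a fixed low reference. In control, the starts and the mitochondrial level were both higher in the later period. Single libraries varied widely, from 0.621% to 1.81% in control and from 0.459% to 1.87% in Dnmt1 KO. These values over nuclear starts were not tested against each other, and the part of incomplete conversion in the mitochondrial rise was not tested.

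Mitochondrial reads were abundant in every library, with no detected difference between genotypes. Calls per mitochondrial CpG cytosine, as a ratio to calls per autosomal CpG cytosine, ranged from 246 to 1022 in control (median 629, n = 9) and from 311 to 666 in Dnmt1 KO (median 487, n = 9). The lowest and the highest library were the replicates of control day 1, and the ranges overlapped. The ratio in Dnmt1 KO was 0.893 times that in control (log2 difference -0.163, exact permutation within days, p = 0.467, adjusted p = 0.80), and without control day 1 replicate 1 the log2 difference was 0.0432. The log2 ratio had slopes of 0.0017 per day in control (exact permutation, p = 0.977) and 0.00632 per day in Dnmt1 KO (exact permutation, p = 0.865), both with an adjusted p of 0.977. The ratio is one of sequenced calls after duplicates were removed, not a copy number per cell.

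The heavy strand was read more often than the light strand in all 18 libraries. Reverse-strand calls outnumbered forward-strand calls by 2.10 to 2.52 times (median 2.20), and the forward strand gave 28.4% to 32.3% of mitochondrial calls, against 51.0% to 51.6% of autosomal calls. The log2 ratio of forward to reverse calls was -1.16 ± 0.0714 (SD, n = 18 libraries), a 2.24-fold excess of the reverse strand, with an exact sign-flip permutation p of 7.63e-06, the smallest that 18 libraries allow (adjusted p = 9.16e-05). Each CpG has 1 cytosine on either strand, so equal sampling would give a log2 ratio of 0.

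The strand ratio differed along the genome. Among the tested regions it was lowest in the ribosomal RNA genes, with 1.22 reverse calls per forward call in mt-Rnr2 and 1.3 in mt-Rnr1. It was 2.85 in mt-Nd1, 3.65 in the control region and 10.1 in mt-Nd6, the subunit gene of complex I that is encoded on the opposite strand from the other protein-coding genes. Inside the stretch copied on chromosome 1 it ran from 0.2 in mt-Co2, which had 6 calls in all, through 2.74 in mt-Nd4l and 12.3 in mt-Nd3 (both complex I) to 1079 in mt-Co3 (cytochrome c oxidase), which had 5 forward calls. Over the 8 tested regions without positions in the near-identical copy on chromosome 1, the ratio went with the ratio of cytosines to guanines of the forward strand (Spearman rho 0.833, Pearson r 0.922, across regions of the same libraries). That base ratio was 1.19 in mt-Rnr2, 2.11 in the control region and 4.71 in mt-Nd6.

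**Figure D2:**
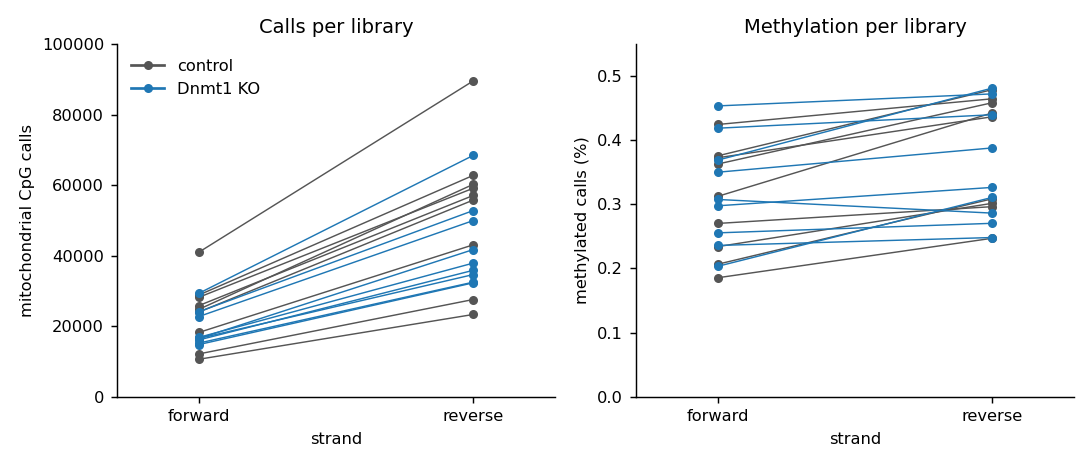
Mitochondrial CpG calls (left) and percent of methylated calls (right) on the forward and reverse strand, with 1 line per library, grey for control and blue for Dnmt1 KO. The reverse strand had more calls in all 18 libraries and a higher level in 17 of 18.

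Methylated calls were also more frequent on the reverse strand. Forward-strand levels ranged from 0.186% to 0.453% (median 0.310%) and reverse-strand levels from 0.247% to 0.481% (median 0.357%), so that the strands overlapped between libraries. Within a library the reverse strand was higher by 0.0567 ± 0.0432 points (SD, n = 18; exact sign-flip permutation p = 4.58e-05, adjusted p = 0.000275), in 17 of 18 libraries. The exception, Dnmt1 KO day 1 replicate 1, had a difference of -0.0213 points. Over 5 alternatives, which included leaving out MT14955-, the mean difference ran from 0.0399 to 0.0808 points. The levels of the 2 cytosines of a CpG were weakly correlated. Each level rests on few methylated calls, so counting error lowers this correlation and it cannot tell whether the 2 are related. Across the 219 CpGs with at least 500 calls on both strands, Pearson r was 0.0753 and Spearman rho 0.119, from the same libraries, and the reverse cytosine was higher in 138.

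The strand difference was 0.0766 ± 0.0334 points in control and 0.0368 ± 0.0444 points in Dnmt1 KO (SD, n = 9 each). Its difference between genotypes was -0.0380 points (exact permutation within days, p = 0.0231), which did not pass adjustment (adjusted p = 0.0556). Without the positions that have a near-identical nuclear copy it was -0.00545 points (exact permutation p = 0.80), and as a mean over the levels of positions it was -0.0685 points (exact permutation p = 0.0208).

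A cytosine or an adenine before a CpG went with the level in every library. Of 8 classes of neighbouring base, 6 differed from the other positions (75.0% of the classes; exact sign-flip permutation over 18 libraries, adjusted p under 0.05). Each class was set against all other positions, and preceding and following bases were not separated, so these 6 are not independent results. Cytosines preceded by cytosine had 0.482% ± 0.119 (SD, n = 18) methylated calls over 114 listed positions, 0.166 points above the other positions and higher in 18 of 18 libraries (exact permutation, adjusted p = 2.03e-05). Cytosines preceded by adenine had 0.275% ± 0.0871 over 145 positions and were lower in 18 of 18 libraries, by a mean difference of -0.103 points (exact permutation, adjusted p = 2.03e-05). Those preceded by guanine had 0.296% ± 0.0725 and were lower in 16 of 18, whereas those preceded by thymine had 0.365% ± 0.0940 and did not pass the test (exact permutation, adjusted p = 0.192).

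On the other side of the CpG, a following cytosine went with a higher level (0.0866 points above the other positions, higher in 18 of 18 libraries) and a following thymine with a lower one (-0.0790 points, lower in 17 of 18). A following guanine passed the test over both strands, at 0.0424 points, with 12 of 18 libraries higher (exact permutation, adjusted p = 0.0318), and lost the call in 6 of 18 cases when a library was left out, while on the forward strand alone the difference was 0.00294 points (exact permutation, adjusted p = 0.919). The class with a following guanine holds the reverse-strand cytosine MT14955- (163 methylated of 5048 calls), and both strands together were not tested without it. The preceding cytosine gave 0.163 points on the forward and 0.170 points on the reverse strand. Within each class of preceding base the reverse strand kept the higher mean, by 0.0486 points after adenine, 0.0659 after cytosine, 0.0826 after guanine and 0.0643 after thymine. The reverse-strand class after thymine holds MT14955-, and its difference was not computed without that cytosine.

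**Figure D3:**
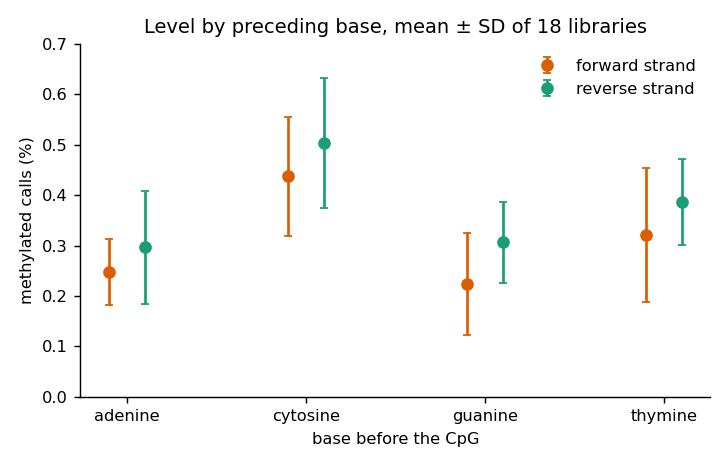
Percent of methylated calls by the base that precedes the CpG, on the forward and the reverse strand, as the mean ± SD of 18 libraries. Cytosines preceded by cytosine were the highest class on both strands, at 0.437% forward and 0.503% reverse.

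A single cytosine stood far above all others. MT14955-, in mt-Cytb, had 163 methylated of 5048 calls, or 3.23% (95% exact interval 2.76% to 3.75%), and had methylated calls in all 18 libraries. It ranged from 1.72% to 4.89% in control (median 3.42%, n = 9) and from 1.49% to 4.55% in Dnmt1 KO (median 3.57%, n = 9), so that the genotypes overlapped over nearly the whole range and every library lay above its own mitochondrial level. Pooled, it read 3.45% in control and 2.96% in Dnmt1 KO (Fisher's exact test, p = 0.338, adjusted p = 1.0). At days 1 and 3 it read 2.71% (2.10% to 3.43%) and at days 9 and 11 it read 3.68% (2.94% to 4.55%). In the same order of periods it read 3.25% (2.37% to 4.34%) and 3.65% (2.68% to 4.84%) in control, and 2.05% (1.3% to 3.06%) and 3.73% (2.63% to 5.13%) in Dnmt1 KO. The intervals overlapped in both genotypes, but overlap is not a test, and the periods were not tested against each other at this cytosine.

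The level was confined to that cytosine among its neighbours. The other cytosine of the same CpG, on the forward strand, had 4 methylated of 1071 calls, or 0.373%. The 5 CpG cytosines within 100 bp, that one included, read 0.182% to 0.440%. MT14955- gave 3.73% of all mitochondrial methylated calls from 0.404% of the calls. The base before its CpG is a thymine, and the nuclear sequence most like its surroundings has 93.0% identity.

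Beyond it the positions formed a narrow distribution. Among the 476 cytosines with at least 40 calls, the median was 0.310%, the quartiles were 0.215% and 0.404%, and the next highest read 1.14%. In 23 of them no methylated call was seen in 43 to 1447 calls, and a count of 0 allows a level of up to 6.98% at the fewest and 0.207% at the most calls. An exact one-sided binomial test against the other positions of the strand called 13 of 476 (2.73%) at an adjusted p under 0.05, 5 on the forward and 8 on the reverse strand, with 37 at an unadjusted p under 0.05. This test takes calls as independent and sums over libraries.

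Of these 13 called cytosines, 10 were preceded by cytosine, of 110 tested cytosines in that class. In the other classes the test called 0 of 137 after adenine, 1 of 88 after guanine and 2 of 141 after thymine. MT13344+ read 1.14% (9 of 791 calls, adjusted p = 0.0372, exact binomial) with methylated calls in 6 libraries. MT5167+ read 1.13% (24 of 2127, adjusted p = 1.53e-05, exact binomial) with methylated calls in 13 libraries, and MT15744- in the control region read 1.07% (37 of 3464, adjusted p = 4.14e-06, exact binomial) in 14. MT5439+ read 0.974%, MT1214+ 0.889%, MT11415- 0.789%, MT1928+ 0.771%, MT1787- 0.758% and MT12273- 0.702%, with methylated calls in 11 to 14 libraries each. Of these 10 named cytosines, 5 lie inside a nuclear copy of at least 95% identity, as do 217 of the 501 listed ones. Their best copies have 95.2% identity for MT13344+, 97.9% for MT5167+, 99.7% for MT15744-, 97.4% for MT5439+ and 97.6% for MT1787-, and the part of reads from these copies in their levels was not tested. When each library was left out in turn, MT12273-, MT13344+, MT1928+ and MT1787- lost the call in 10, 6, 9 and 4 of 18 cases and the other 6 named positions kept it, while the count of calls ranged from 7, without control day 11 replicate 2, to 14.

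No position was called between genotypes. Fisher's exact test on calls summed per genotype called 0 of 473 cytosines with at least 20 calls in each genotype (0.0%), with 7 at an unadjusted p under 0.05 and a lowest adjusted p of 1.0. The exact permutation test over libraries called 0 of 468, with 8 unadjusted. Its smallest possible p, 0.00077, could pass adjustment over 468 positions only if several positions reached it, so that this count of 0 says little. The lowest p of Fisher's exact test, 0.0105, came from 14 of 1769 control and 2 of 1401 Dnmt1 KO calls at MT5405-. With so few methylated calls per position, that test could detect only large differences. The 5 cytosines with the lowest Fisher p were MT5405- (0.791% in control and 0.143% in Dnmt1 KO), MT5440- (0.659% and 0.0749%), MT5170+ (0.168% and 0.839%), MT11415- (1.03% and 0.495%) and MT5994- (0.392%, and 0 of 1236 calls in Dnmt1 KO, which allows up to 0.243%). Except for MT11415-, these lie where chromosome 2 holds a copy of the mitochondrial sequence, as do 74 of the 473 tested cytosines (15.6%), and 3 of them are in mt-Co1. None of the 5 was called, so nothing is read from where they lie.

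**Figure D4:**
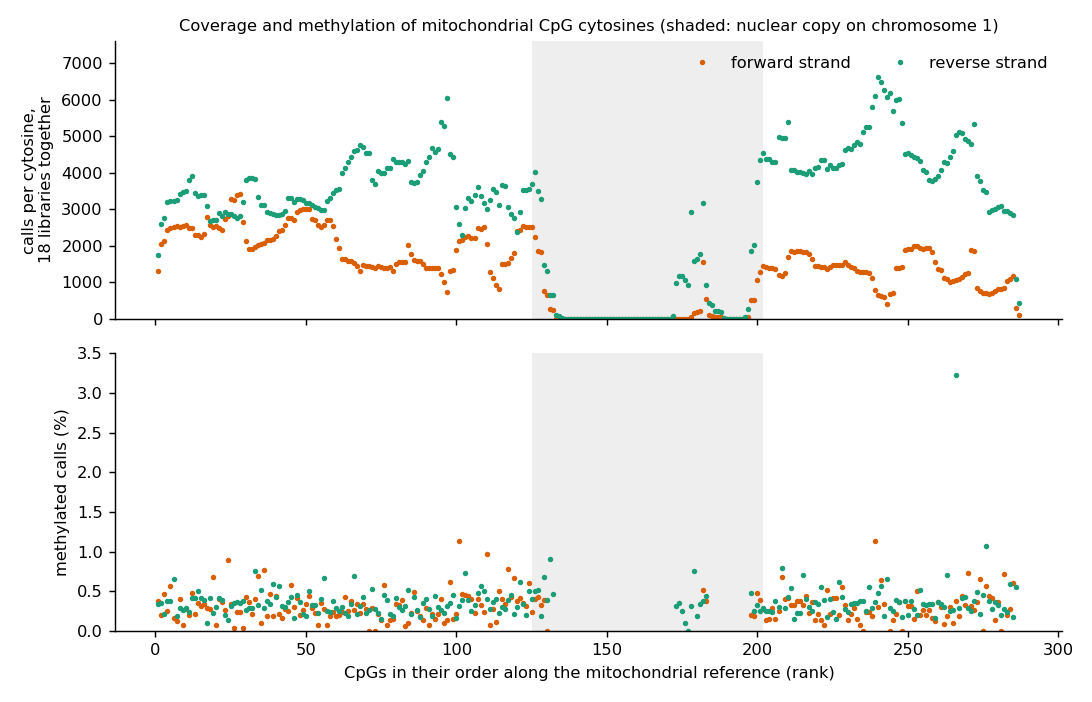
Calls per CpG cytosine summed over 18 libraries (top) and percent of methylated calls of the cytosines with at least 500 calls (bottom), against the rank of the CpG along the reference, with forward and reverse strand in different colours. The shaded part, a near-identical copy of which lies on chromosome 1, had a median of 1 call per cytosine, with up to 4344 at a single cytosine, and 1 reverse-strand cytosine at 3.23% stood above a band that otherwise reached 1.14%.

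By gene, 13 of 17 regions had at least 100 calls in every library. The untested ones were mt-Co2 (a subunit of cytochrome c oxidase) with 6 calls in all, mt-Atp8 and mt-Atp6 (both subunits of ATP synthase) with 0 calls, and mt-Nd4l (complex I) with 3177 calls and as few as 59 in a library. Among the tested regions 2 of 13 (15.4%) differed from the rest of the mitochondrial genome in an exact sign-flip permutation test over libraries. mt-Cytb was the 1 region called higher (7.69%), with 0.237% to 0.677% per library and a mean difference of 0.0742 points (higher in 14 of 18, exact permutation, adjusted p = 0.0095). mt-Nd1, a core subunit of complex I, was the 1 region called lower (7.69%), with 0.166% to 0.442% per library and a mean difference of -0.0530 points (lower in 15 of 18, exact permutation, adjusted p = 0.0095). Both ranges overlapped that of the whole genome. Without MT14955- no region passed, with mt-Cytb at -0.0278 points and mt-Nd1 at -0.0400 points.

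The control region was not found to differ from the rest of the mitochondrial genome. It read 0.381% ± 0.181 (SD, n = 18), a difference of 0.0296 points from the rest (exact permutation, adjusted p = 0.452). Its 32 CpG cytosines, with 109 to 5339 calls each, ranged from 0% to 1.07% with a median of 0.362%, and MT15744- was the highest of them. The ribosomal RNA genes read 0.338% ± 0.115 in mt-Rnr1 and 0.333% ± 0.105 in mt-Rnr2, and the tRNA genes together read 0.327% ± 0.116 (n = 18 each). mt-Co1 read 0.396% ± 0.126 and mt-Nd6 0.402% ± 0.159, and neither passed the test.

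Between genotypes, 0 of 13 regions differed in level (0.0%, exact permutation within days, lowest adjusted p = 0.211). The only region at an unadjusted p under 0.05 was mt-Nd4, a complex I subunit gene, with 0.392% ± 0.112 in control and 0.273% ± 0.0895 in Dnmt1 KO (n = 9 each), a mean difference of -0.128 points (exact permutation p = 0.0162). Without Dnmt1 KO day 3 replicate 1 it was -0.148 points and passed adjustment (exact permutation, adjusted p = 0.0100). Of the 42 CpG cytosines of mt-Nd4, 26 lie inside the near-identical nuclear copy on chromosome 1. That copy read 33.3% in control and 11.6% in Dnmt1 KO, and the part of its reads in the mt-Nd4 levels was not tested. The share of mitochondrial calls differed in 0 of 13 regions (0.0%, lowest adjusted p = 0.371, exact permutation), with mt-Nd2 alone at an unadjusted p under 0.05 (log2 difference 0.0551, exact permutation p = 0.0285). Without Dnmt1 KO day 11 replicate 1, mt-Nd2 passed at a log2 difference of 0.0639 (exact permutation, adjusted p = 0.0401).

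**Figure D5:**
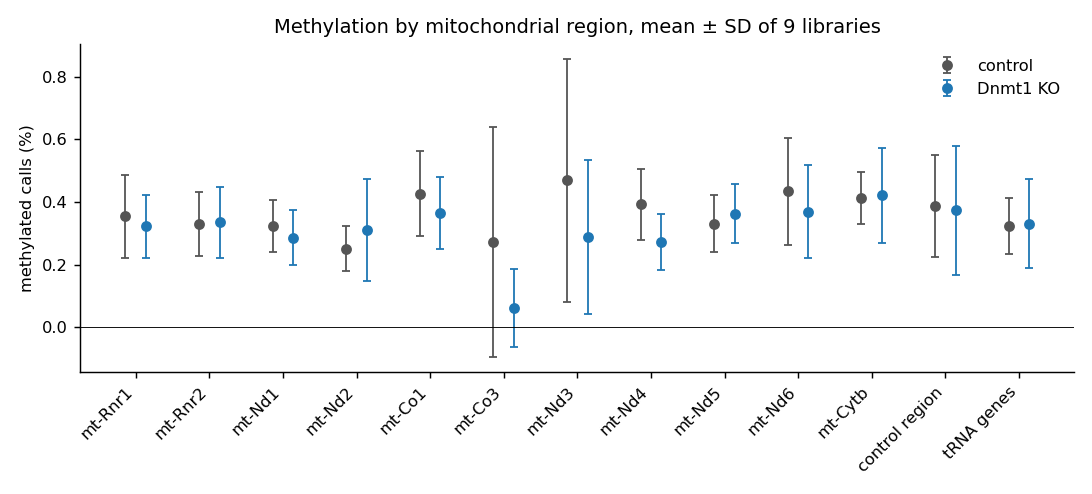
Percent of methylated calls in the 13 tested mitochondrial regions, in genome order with the tRNA genes last, as the mean ± SD of 9 libraries per genotype. The error bars of the genotypes overlapped in every region, and mt-Co3 and mt-Nd3, with as few as 105 and 136 calls in a library, had the widest spread in control (SD 0.367 and 0.388 points).

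The mitochondrial cytosines without calls all lay in a stretch with a near-identical copy in the nuclear reference. A BLAST search of NCBIM37 found 119 nuclear alignments of at least 100 bp, of which 8 had at least 95% identity. The longest, chr1:24618374-24623027, matched MT:6390-11042 over 4654 bp with 99.9% identity. It covered 151 mitochondrial CpG cytosines, which had a median of 1 call over all libraries together, and all 73 cytosines listed in no library were among them. The 284 cytosines with no copy of 95% identity had a median of 2807 calls and were each listed in every library. Inside the copy on chromosome 1, 78 of the 151 cytosines were listed, 45 of them in every library. The 59 cytosines inside the copy on chromosome 2 only (median 2513 calls) and the 80 inside other copies of 95% identity were also listed in every library. The regions without a test lie wholly inside the copy on chromosome 1, as do the tested regions mt-Co3 (28 cytosines) and mt-Nd3 (8 cytosines).

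Calls placed on the nuclear copies included many methylated ones, given here over all days together unless days are named. The copy on chromosome 1 read 33.3% of 108 calls in control (95% exact interval 24.6% to 43.1%) and 11.6% of 146 calls in Dnmt1 KO (6.93% to 18%). That on chromosome 2, chr2:22442808-22446054 with 97.4% identity, read 41.2% of 464 calls and 21.8% of 504 calls, with 8.80 calls per cytosine against 4.06 on the autosomes as a whole. A shorter one, chr13:85266167-85267120 with 95.2% identity, read 90% of 110 calls and 43.8% of 105 calls, and chr12:98299638-98300002, the copy over MT15744-, read 71.9% of 64 calls and 40% of 45 calls. Mitochondrial cytosines inside such a copy read 0.215% to 0.539% per library (median 0.357%) and the other cytosines 0.226% to 0.491% (median 0.350%), with broad overlap. The difference within a library was 0.0239 ± 0.0606 points (SD, n = 18), higher in 14 of 18 (exact sign-flip permutation p = 0.113, adjusted p = 0.227). With copies of 90% identity or more the difference was 0.0557 points (exact permutation p = 0.000168), and 0.0338 points without MT14955- (exact permutation p = 0.00781), whereas with copies of 98% identity or more it was 0.0149 points (exact permutation p = 0.582). The part of misplaced nuclear reads in the mitochondrial levels was not tested, nor was that of misplaced mitochondrial reads in the levels of the nuclear copies.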

How the data were processed

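Whole-genome bisulfite libraries of 18 ESC samples were analysed, grouped by the genotype and day in their labels. According to the methods, the authors trimmed paired reads, aligned them to NCBIM37 with Bismark (version 0.12.3 in the submitters' processing notes; the methods name a later one), removed duplicates and kept the calls in CpGs. For each cytosine of a strand, the deposited counts were those of methylated and of unmethylated calls. The deposited percent equalled the methylated share of these counts, within 1e-06 points, at all 8741 mitochondrial entries of the 18 tables. Calls outside CpGs were not analysed here, and the methods name a coverage minimum for the authors' windows and averages but none for the deposited tables.

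Counts were summed per library, strand, position and region without normalization, and a level is methylated over all calls in percent. Genotype was permuted within days (2592 arrangements, smallest p 0.00077), days within a genotype (22680 arrangements), and signs over libraries (262144 arrangements). All main tests over libraries were exact and two-sided, and Benjamini-Hochberg adjusted. Fisher's exact test needed 20 calls per genotype and the binomial test 40 calls. Regions were GENCODE genes and the stretch after the last tRNA gene (the control region), with at least 100 calls in every library, a minimum chosen after the data had been seen. Nuclear copies came from BLAST+ 2.17.0 with at least 95% identity over 100 bp. Other values came from Python 3.11.15 with SciPy 1.17.1 and statsmodels 0.14.6, and the tests were checked on simulated data. Intervals are 95% Clopper-Pearson intervals, and a count of 0 allows 3 calls. Depth was 33969 to 130524 mitochondrial calls per library.

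Named positions were up to 10 called above their strand, with the highest pooled level and methylated calls in at least 6 libraries, and the 5 with the lowest Fisher p between genotypes. Members and lists were chosen with earlier results of these data known. Alternatives changed coverage minimum, averaging, reference chromosome, copy identity and libraries. For the level between genotypes they included a quasi-binomial model, a model of the counts that allows extra spread between libraries and is not exact.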

Additional observations from a re-analysis of the deposited data

How the results depend on the processing

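The slopes of mitochondrial methylation, the strand differences in calls and in level, and the absence of called positions between genotypes kept their direction and their side of the threshold (an unadjusted p of 0.05 for single values) under every alternative run. Without positions in a nuclear copy, the strand difference in level between genotypes was -0.00545 points, and as a mean of the positions' levels it was -0.0685 points. With copies of 90% identity, positions inside them were 0.0557 points higher, and 0.0338 points higher without the highest position, an alternative chosen after seeing the data, against 0.0149 points with copies of 98% identity. Without that position, 0 regions differed from the rest and mt-Cytb was at -0.0278 points. With chromosome X as reference, the control slope of relative calls was -0.0065 per day. The cause of these changes was not tested.

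When each library was left out in turn, Dnmt1 KO minus control in level ran from -0.0319 to 0.00298 points and in relative calls from -0.368 to 0.0432 on the log2 scale. The strand difference in level between genotypes ran from -0.0472 to -0.0289 points and passed the unadjusted threshold except without control day 11 replicate 1 (-0.0356 points, exact permutation p = 0.0594) or Dnmt1 KO day 11 replicate 2 (-0.0289 points, exact permutation p = 0.102). The excess of positions in nuclear copies ran from 0.0176 to 0.0308 points and passed it only without Dnmt1 KO day 6 replicate 1 (0.0308 points, exact permutation p = 0.0335). The difference between slopes of methylation ran from -0.00311 to 0.000826 points per day. The log2 slopes of relative calls ran from -0.0578 to 0.0495 in control, from -0.0171 to 0.0270 in Dnmt1 KO, and from -0.0432 to 0.0641 for their difference. Called positions numbered 7 to 14 (8 without control day 1 replicate 1), and regions that differed between genotypes 0 to 1 in level and 0 to 1 in share of calls. Of 361 alternative values of 18 named positions, regions and classes, 323 kept their call, 37 lost it and 1 changed sign.

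Deviations of same-numbered libraries of the 2 genotypes over 449 positions had correlations of 0.0353, -0.0310, 0.0563 and -0.0209 at days 1, 3, 9 and 11. With few methylated calls per position and library, such correlations cannot tell whether these libraries were paired. The main tests did not take the replicate numbers as pairs. With the replicate number as a block, the difference in level was -0.0114 points (exact permutation p = 0.59), that in relative calls -0.189 (exact permutation p = 0.26), that in the strand difference -0.0397 points (exact permutation p = 0.0469), and 0 regions differed in level or share of calls. Depth limits single positions, since a median of 68 to 268 calls per library at a level near 0.349% corresponds to under 1 methylated call per cytosine and library.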
